A study of Mus musculus with 8 samples.

Results

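Calcium that enters an endothelial cell or leaves its stores is sensed by calmodulin, and the calmodulin kinases are among the enzymes that calmodulin switches on. The genes described here are Camk2d, its paralogs Camk2a, Camk2b and Camk2g, the related kinases Camk1 and Camk1d, the upstream kinase Camkk2, and the calmodulin genes Calm2 and Calm3. These 9 genes were taken by symbol from the 24394 symbols shared by all tables, and all 9 were listed. They were selected on their scaled reads in these same libraries, with the fall of Camk2d between the groups already known, so every comparison of them between the groups is a description and carries no test.

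Brain endothelial cells had been collected by flow cytometry from mice at postnatal day 8, with 4 libraries in each of 2 groups. The WT group is wild type on C57BL/6J. The YAPTAZ-ECKO group, also labelled C57BL/6J, carries VE-cadherin-CreERT2 together with Yapf/f and Tazf/f, that is, floxed alleles of Yap1 and of Wwtr1 (TAZ), 2 co-activators that act through TEAD transcription factors. VE-cadherin-CreERT2 is a tamoxifen-inducible Cre driven by an endothelial promoter. The Cre transgene and the floxed alleles coincide with the group, and neither the floxed exons nor the mice that received tamoxifen are named in the labels. Nothing in the labels says that the 4 libraries of a group came from separate mice, and a p-value then reflects only library-to-library spread, which may be technical.

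Values are scaled reads, that is, reads per gene brought to a common library size, returned here from the deposited log2 scale. The libraries summed to 10.3 to 10.9 M scaled reads, and the steps between low values implied 6.71 to 16.8 M reads per library. Symbols above 0 numbered 9720, 9325, 9700 and 8621 in WT 1 to 4 and 7538, 8762, 8643 and 8408 in YAPTAZ-ECKO 1 to 4. The YAPTAZ-ECKO libraries thus tended to have fewer, though YAPTAZ-ECKO 2 and 3 exceeded WT 4. The part of this in the values at 0 was not tested. Of the values above 0, 5.25% to 8.19% lay between 10 and 50 scaled reads and 14.3% to 26.8% between 50 and 200. Reads without molecular identifiers are not independent molecules, and limits taken from them cover counting error only. All 11 endothelial markers were present in every group, their sum ranged from 86965 to 104056 scaled reads in WT and from 83682 to 111975 in YAPTAZ-ECKO, and 0 of them passed the test described below. Y-linked transcripts summed to 4.43 to 471 scaled reads in WT and 486 to 1379 in YAPTAZ-ECKO, without overlap, and their part in the results was not tested. In RNA from sorted populations, fewer cells that express a gene and less RNA per cell cannot be told apart.

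The targeted genes were lower in every YAPTAZ-ECKO library. Yap1 was at 2833, 1726, 1409 and 1887 scaled reads in WT 1 to 4 and at 9.29, 605, 293 and 402 in YAPTAZ-ECKO 1 to 4. Wwtr1 was at 8220, 5906, 6756 and 5650 in WT and at 348, 2608, 1261 and 1124 in YAPTAZ-ECKO. Neither gene overlapped between the groups, and the two-sided exact permutation p was 0.0286 for each, the smallest that 4 against 4 libraries allow. On log2(scaled reads + 128), Wwtr1 fell by 2.45 ± 0.41 (SE; limma, adjusted p = 0.0113), while the Yap1 difference was -2.39 ± 0.52 (limma, adjusted p = 0.175). Without WT 1, WT 2 or YAPTAZ-ECKO 4 the adjusted p of Wwtr1 was 0.0755, 0.0580 and 0.0677.

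Calmodulin is a small protein with calcium-binding loops, and in mammals separate genes encode the same protein. CaM kinase II, assembled from alpha, beta, gamma and delta subunits of the Camk2 genes, is opened by calcium-loaded calmodulin and then phosphorylates its own regulatory threonine, which keeps it active after calcium has fallen. The alpha and beta subunits are best known from neurons, whereas delta and gamma are found in many tissues, the vessel wall among them. Camkk2 encodes a kinase that phosphorylates and raises the activity of CaM kinase I and IV and of AMP-activated kinase.

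The coding bases around the autophosphorylated threonine are shown because they give the family feature that unites the Camk2 genes. Reads of one paralog can be told from those of another only where the transcripts differ, within or outside these bases. They come from GRCm38 with the GENCODE M21 annotation, on the coding strand, 5′ to 3′. Each line lies in exon 11 of its transcript, and capitals mark codon 287, the threonine. The stretch of Camk2a is not shown.
Camk2d, chr3:126797720-126797764, plus strand: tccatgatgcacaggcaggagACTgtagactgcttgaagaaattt
Camk2b, chr11:5988976-5989020, minus strand: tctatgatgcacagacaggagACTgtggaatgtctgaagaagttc
Camk2g, chr14:20760418-20760462, minus strand: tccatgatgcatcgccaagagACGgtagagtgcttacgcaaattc

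The first calcium-binding loop of calmodulin is shown for Calm2 and Calm3, counted from codon 21 and lying in exon 3 of each. Capitals mark the 7 of 36 bases that differ between them, none of which alters the protein.
Calm2, chr17:87435873-87435908, minus strand: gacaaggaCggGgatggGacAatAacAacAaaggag
Calm3, chr7:16917667-16917702, minus strand: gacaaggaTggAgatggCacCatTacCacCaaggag

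Over whole coding sequences, Camk2d shared 76.7% of aligned bases with Camk2a, 78.2% with Camk2b and 76.9% with Camk2g. Calm2 and Calm3 shared 82.6% and gave the same translation. No stretch of 50 bases was shared between any of the 4 Camk2 genes, nor between Calm2 and Calm3. For Camk2d, 0 of 8780 such stretches occurred in any other annotated gene. Of the Calm2 stretches 12.2% occurred in Gm7308, Gm15720 or Gm14480, and 2.71% of the Calm3 stretches occurred in Gm5881, so part of the reads of these calmodulin genes could be split with such copies. The labels do not give the read length.

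Camk2d (chromosome 3, 126596302 to 126846326 of GRCm38, plus strand), the delta subunit, was at 951, 3766, 3189 and 1468 scaled reads in WT 1 to 4. In YAPTAZ-ECKO 1 to 4 it was at 0, 133, 0 and 0. The groups were far apart: the lowest WT library stood above the single YAPTAZ-ECKO library with any reads, and 3 of 4 YAPTAZ-ECKO libraries had none. The means were 2344 ± 1347 and 33.2 ± 66.5 (SD, n = 4 each), and the difference on log2(scaled reads + 128) was -3.83 ± 0.56 (SE). A count of 0 allows up to 4.62, 2.31 and 3.42 scaled reads, or 3 reads, in YAPTAZ-ECKO 1, 3 and 4. The WT libraries themselves spanned a wide range, with a coefficient of variation of 57.5%.

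**Figure D1:**
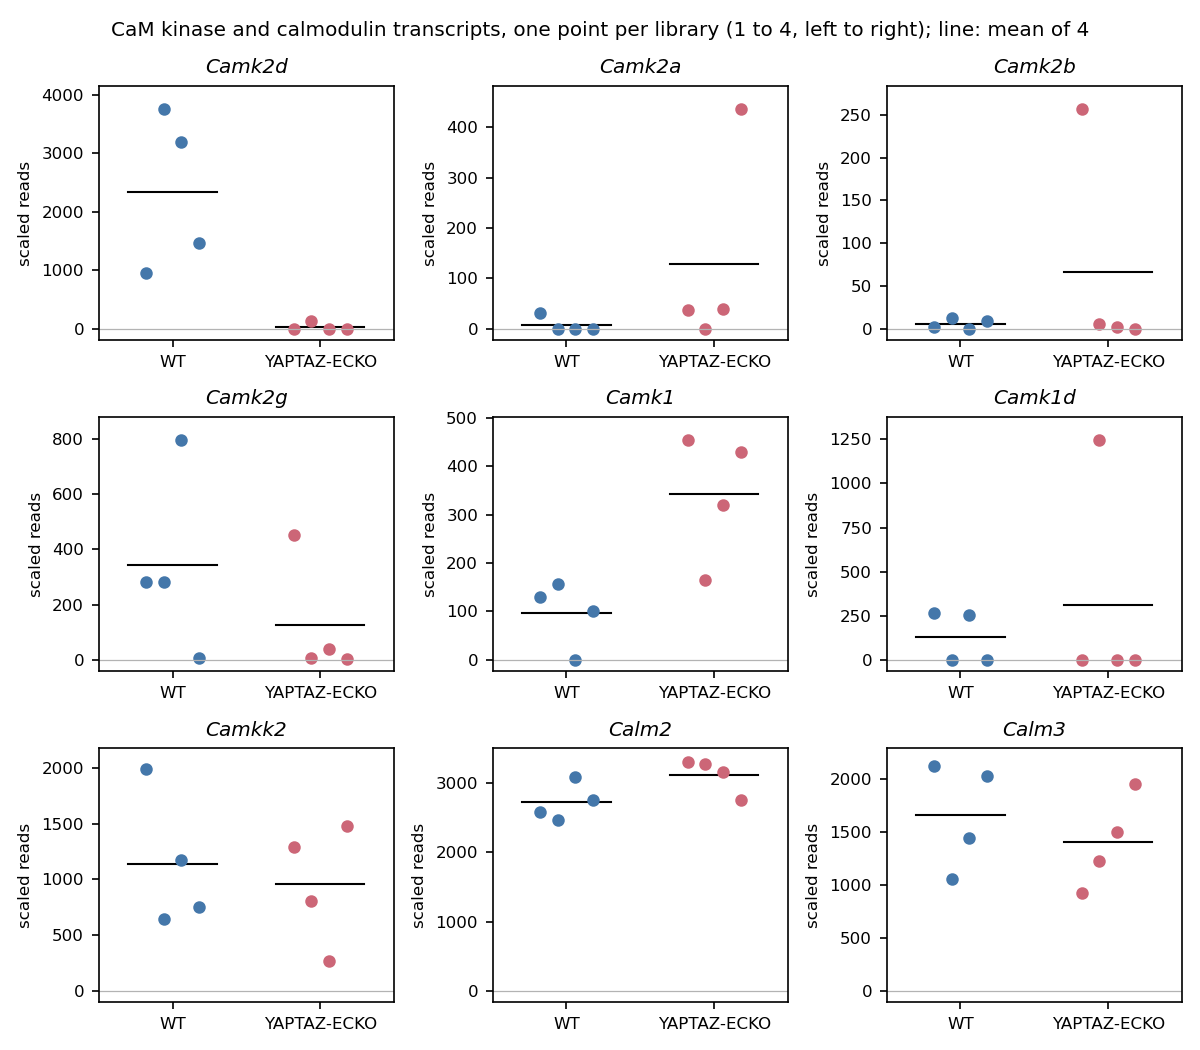
Scaled reads (linear y axis, starting near 0) of the 9 genes in each library, WT in blue and YAPTAZ-ECKO in red, libraries 1 to 4 from left to right within a group, with a line at the mean of 4. Camk2d runs from 951 to 3766 in WT and from 0 to 133 in YAPTAZ-ECKO, while Calm2 stays between 2466 and 3299 in all 8 libraries.

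Across the 8706 genes with 10 or more scaled reads in 4 or more libraries, 3 genes, or 0.0345%, had an adjusted p under 0.05 (limma with Benjamini-Hochberg adjustment). These were Camk2d, Wwtr1 and Bgn, which encodes the matrix proteoglycan biglycan. Of the 9 genes described here 7 passed that filter on low values, and 1 of the 7, Camk2d, is among the 3. Nothing is read from that, since Camk2d was selected on its known fall and passed the filter through its WT libraries. All 3 were lower in YAPTAZ-ECKO and 0 genes were called higher, against 476 genes (5.47%) at an unadjusted p under 0.05 in either direction and 0 called by voom, another limma fit, on rebuilt reads. Groups without overlap occurred in 180 tested genes that were lower in YAPTAZ-ECKO (2.07%) and in 116 that were higher (1.33%), or 3.4% in all. Among the 7 tested genes described here 1, Camk2d, was lower without overlap and 1, Camk1, was higher without overlap. The median difference of all tested genes was -0.09, and 56.9% of them were lower. Camk2b and Camk1d did not pass the filter and are given below by their values alone.

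**Figure D2:**
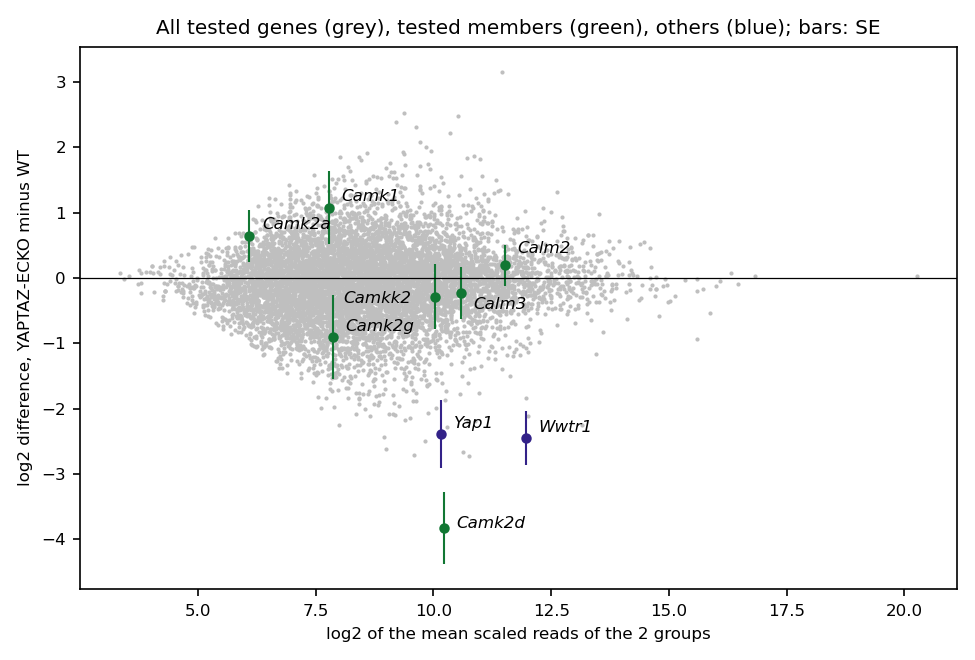
Log2 difference, YAPTAZ-ECKO minus WT, on log2(scaled reads + 128) (y axis) against log2 of the mean scaled reads of both groups (x axis) for 8706 tested genes in grey, with the 7 tested genes described here in green and Yap1 and Wwtr1 in blue, bars showing the SE. Camk2d lies at -3.83, lower than Wwtr1 at -2.45 and Yap1 at -2.39, and the other labelled genes lie between -0.90 and 1.08.

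How often a gene at the WT level of Camk2d was at 0 is given as a description of the libraries, and is no test of Camk2d, whose zeros were known when it was selected. Among 746 other genes whose WT mean lay within 1.5 times that of Camk2d (1562 to 3516 scaled reads), 15 (2.01%) were at 0 in at least 1 YAPTAZ-ECKO library. None of the 746 was at 0 in 2 or more YAPTAZ-ECKO libraries. In WT, 4 of the 746 genes (0.536%) were at 0 in at least 1 library and 0 in at least 2. The genes were picked by their WT mean, which limits zeros in WT, so these shares do not compare the groups. With a window of 2 times the WT mean, 9 of 1325 genes were at 0 in at least 2 YAPTAZ-ECKO libraries and 0 in at least 3.

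YAPTAZ-ECKO 2, the library of its group with Camk2d reads, also kept the most targeted transcript. In YAPTAZ-ECKO 1 to 4 Camk2d stood at 0%, 5.67%, 0% and 0% of its WT mean. Yap1 stood at 0.473%, 30.8%, 14.9% and 20.5% of its own WT mean, and Wwtr1 at 5.25%, 39.3%, 19.0% and 16.9%. YAPTAZ-ECKO 2 was thus highest for all 3 genes. A relation between these residual levels was not tested.

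**Figure D3:**
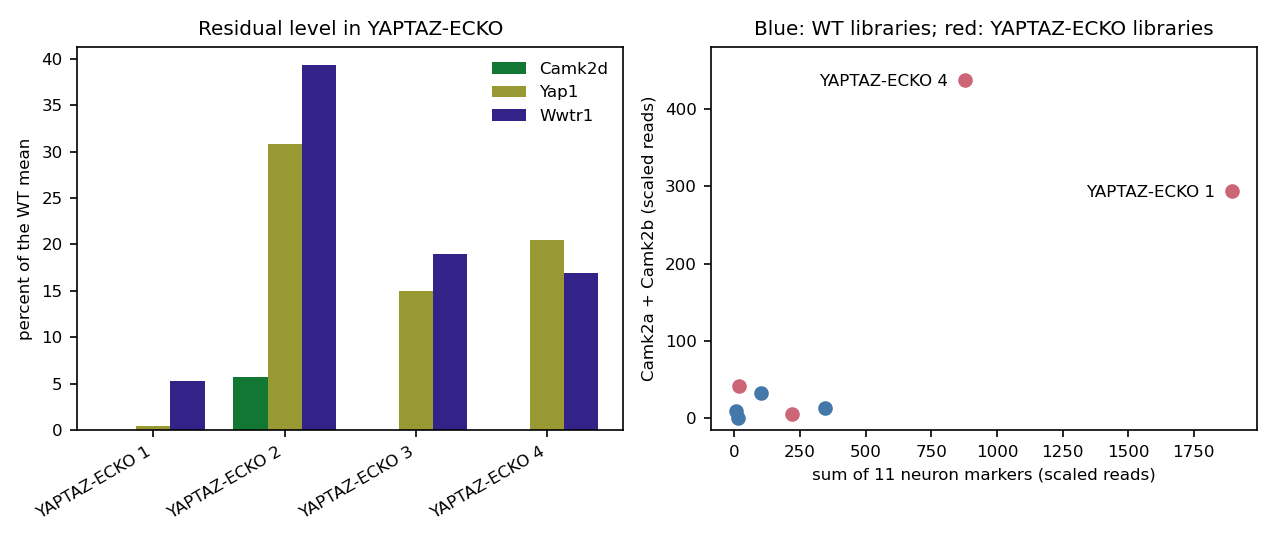
Left, the level of Camk2d, Yap1 and Wwtr1 in each YAPTAZ-ECKO library as a percent of the WT mean (bars from 0), with YAPTAZ-ECKO 2 highest for all 3 genes at 5.67%, 30.8% and 39.3%. Right, the sum of Camk2a and Camk2b against the sum of 11 neuron markers, both in scaled reads, with 1 point per library, in which YAPTAZ-ECKO 1 and 4 stand apart on both axes.

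The start of Camk2d is shown because the co-activators removed in these mice reach DNA through TEAD factors. The 250 bases before its RefSeq start site (GRCm38.p6, chr3:126596701-126596950, plus strand) carry GGGCGG, a box read by Sp1-type factors, at the 3 positions in capitals, counted on either strand. GENCODE M21 starts the gene earlier, at 126596302, so this window lies inside the gene of that annotation. The bases before the GENCODE start were not searched.
Camk2d upstream: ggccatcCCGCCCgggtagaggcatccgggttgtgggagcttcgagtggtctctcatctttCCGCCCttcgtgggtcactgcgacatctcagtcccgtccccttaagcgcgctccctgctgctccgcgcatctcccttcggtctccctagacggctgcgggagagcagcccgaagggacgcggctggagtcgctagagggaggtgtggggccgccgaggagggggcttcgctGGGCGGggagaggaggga

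Over the 300 bases from 250 before to 50 after the start, the Camk2d sequence held 31 CG dinucleotides, against a median of 7 in all 32851 RefSeq promoters of that length, 89.4% of which had fewer. The TEAD letters GGAATG, the AP-1 letters TGANTCA and the cyclic AMP response element TGACGTCA, each searched on both strands, were not in this window. They occurred in 14.7%, 7.81% and 1.79% of all promoters, and GGGCGG in 35.7%. The 7 promoter entries used, from 6 of the 9 genes, held none of the first 3 motifs, and 6 entries held GGGCGG. Chromosome 18, which carries Camk2a, was left out of the search among the 9 genes. These letters describe the window only and say nothing of where a factor binds.

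Genes beside Camk2d on chromosome 3 gave few readings. Of 14 listed genes that start within 1 Mb of it, 4 were above 0 in any library and 3 passed the filter, of which 0 were called. Tifa, an adaptor of inflammatory signalling, differed by -0.93 ± 0.53 (SE; limma, adjusted p = 0.960), Larp7, which binds the 7SK RNA, by -0.32 ± 0.53 (limma, adjusted p = 0.990), and Ap1ar by -0.14 ± 0.60 (limma, adjusted p = 0.994). The nearest protein-coding neighbours, Ank2 and Arsj, were at 0 in all 8 libraries. Of 8 annotated transcripts that overlap Camk2d, 7 on its strand and 1 on the other, none was listed in the tables.

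No paralog of Camk2d reached, in any YAPTAZ-ECKO library, the lowest WT value of Camk2d. Camk2g (chromosome 14), the gamma subunit, was at 280, 284, 798 and 5.97 scaled reads in WT 1 to 4 and at 453, 5.31, 39.1 and 3.46 in YAPTAZ-ECKO 1 to 4. The groups overlapped over most of their range, and the difference was -0.90 ± 0.64 (SE) on log2(scaled reads + 128). Leaving out 1 library at a time moved it between -1.41 and -0.48. A single library, YAPTAZ-ECKO 1, held most of the gamma reads of its group.

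The neuronal subunits were near 0 in WT. Camk2a (chromosome 18) was at 31.3, 0, 0 and 0 scaled reads in WT and at 37.0, 0, 39.1 and 437 in YAPTAZ-ECKO, a difference of 0.64 ± 0.40 (SE). Camk2b (chromosome 11) was at 1.80, 13.0, 0 and 8.95 in WT and at 257, 5.30, 2.27 and 0 in YAPTAZ-ECKO. In each case 1 YAPTAZ-ECKO library, number 4 for alpha and number 1 for beta, stood above all others. For Camk2a, YAPTAZ-ECKO 1 and 3 also lay slightly above the highest WT library, and for Camk2b the remaining YAPTAZ-ECKO values lay within the WT range.

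Those same libraries carried the most neuron marker transcripts. The 11 neuron markers summed to 103, 347, 15.6 and 5.97 scaled reads in WT 1 to 4 and to 1896, 218, 17.6 and 879 in YAPTAZ-ECKO 1 to 4. Rbfox3, the gene of the neuronal nuclear protein NeuN, made up 1375 of the sum in YAPTAZ-ECKO 1 and 489 in YAPTAZ-ECKO 4. The other markers with reads did not all follow it. Stmn2 was at 520 in YAPTAZ-ECKO 1 and 0 in YAPTAZ-ECKO 4, and Snap25 at 0 and 388. Map2 was at 0 in both, against 160 in WT 2 and 218 in YAPTAZ-ECKO 2. Tubb3 was at 1.61 and 1.17, against 121 in WT 2. Of the 11 markers Syt1, Nefl, Nefm, Gad1, Slc17a7 and Dcx were at 0 in all 8 libraries, and the part of neuronal RNA in the Camk2a and Camk2b values was not tested.

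Summed over the 4 Camk2 genes, CaM kinase II transcript was at 1264, 4063, 3987 and 1483 scaled reads in WT 1 to 4. It was at 747, 144, 80.5 and 441 in YAPTAZ-ECKO 1 to 4, below every WT library. With Camk2d left out of the sum, the values were 313, 297, 798 and 14.9 in WT and 747, 10.6, 80.5 and 441 in YAPTAZ-ECKO. Those remaining reads averaged 356 ± 325 in WT and 320 ± 342 in YAPTAZ-ECKO (SD, n = 4 each), a gap far smaller than either spread.

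Per kilobase of the principal transcript, delta made up 67.6%, 89.5%, 72.8% and 98.6% of the CaM kinase II sum in WT 1 to 4. In YAPTAZ-ECKO it made up 0%, 89.7%, 0% and 0%. The subunit that led in its place per kilobase differed from library to library: gamma took 63.1% in YAPTAZ-ECKO 1 and 55.6% in YAPTAZ-ECKO 3, and alpha took 98.9% in YAPTAZ-ECKO 4. In reads not divided by length, alpha and gamma were equal in YAPTAZ-ECKO 3, at 48.6% each. Delta then made up 75.2% to 99.0% in WT. The shares per kilobase rest on sums of 19.0 to 194 scaled reads per kilobase in YAPTAZ-ECKO, against 255 to 793 in WT. They apply only if reads cover the whole transcript, since length does not enter for reads from its end.

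**Figure D4:**
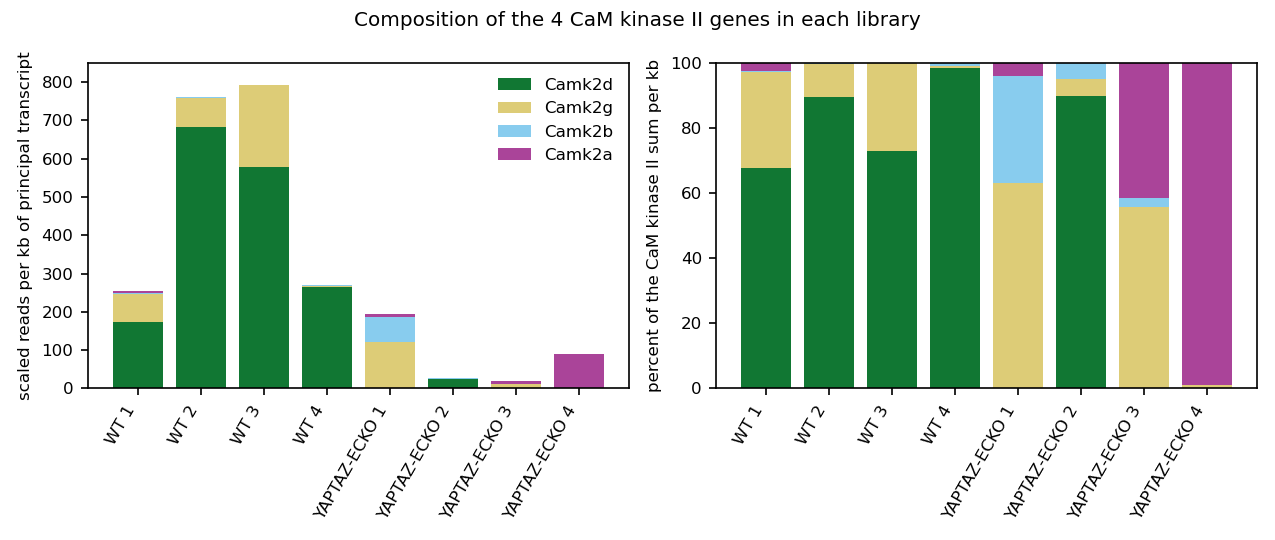
Left, stacked bars from 0 of Camk2d, Camk2g, Camk2b and Camk2a in scaled reads per kilobase of principal transcript, 1 bar per library; right, the same values as a percent of each library's sum. Delta fills 67.6% to 98.6% of the bar in the 4 WT libraries and, of the YAPTAZ-ECKO libraries, only YAPTAZ-ECKO 2 shows any. For reads from the transcript end only, the division by length would not apply.

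Camk1, a CaM kinase I gene, showed the order of groups opposite to that of Camk2d. Camk1 (chromosome 6) was at 131, 156, 0 and 101 scaled reads in WT 1 to 4 and at 455, 166, 319 and 430 in YAPTAZ-ECKO 1 to 4. Every YAPTAZ-ECKO library was above every WT library, although YAPTAZ-ECKO 2 exceeded WT 2 by little. Of all tested genes, 1.33% were likewise higher without overlap. The means were 97.1 ± 68.5 and 343 ± 132 (SD, n = 4 each), and the difference was 1.08 ± 0.57 (SE) on log2(scaled reads + 128).

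Camk1 shares its locus with Ogg1, the DNA repair glycosylase gene on the opposite strand. Ogg1 was at 22.7, 97.5, 0 and 101 scaled reads in WT 1 to 4 and at 455, 135, 116 and 174 in YAPTAZ-ECKO 1 to 4. In WT 4 and YAPTAZ-ECKO 1 the values of both genes were equal, and in WT 3 both were at 0. In the other 5 libraries Camk1 was the higher. Of the 50-base stretches of Camk1 transcripts, 1.07% also occurred in Ogg1. The labels do not say whether counting used strand, so the values of Camk1 are uncertain where the genes overlap. Ogg1 itself differed by 0.87 ± 0.52 (SE; limma, adjusted p = 0.963).

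Camk1d (chromosome 2), which encodes the delta form of CaM kinase I, was at 265, 0, 256 and 0 scaled reads in WT and at 0, 1249, 0 and 0 in YAPTAZ-ECKO. Both groups were at 0 in at least 2 libraries and the single high value decided the YAPTAZ-ECKO mean, so no direction can be read. Camkk2 (chromosome 5) was at 1989, 642, 1175 and 756 in WT and at 1287, 807, 270 and 1480 in YAPTAZ-ECKO. Its groups overlapped, and the difference of -0.29 ± 0.50 (SE) turned to 0.14 without YAPTAZ-ECKO 3.

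Calm2 and Calm3 were the steadiest of the set. Calm2 (chromosome 17) was at 2580, 2466, 3083 and 2755 scaled reads in WT 1 to 4 and at 3299, 3270, 3156 and 2755 in YAPTAZ-ECKO 1 to 4. Its coefficient of variation was 9.88% in WT and 8.04% in YAPTAZ-ECKO, and its difference of 0.19 ± 0.32 (SE) became -0.01 when libraries were rescaled by their upper quartiles. That scaling moved the median of all tested genes to -0.22. Calm3 (chromosome 7) was at 2122, 1057, 1445 and 2030 in WT and at 924, 1224, 1498 and 1954 in YAPTAZ-ECKO, with a difference of -0.23 ± 0.40 (SE) and overlapping groups.

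Per kilobase of principal transcript, the WT levels ran in the order Calm2 (2258 ± 223 scaled reads per kilobase, SD, n = 4), Calm3 (726 ± 220), Camk2d (424 ± 244) and Camkk2 (415 ± 222). The means of Camk2d and Camkk2 were closer than the larger SD of the pair. Below them came Camk2g (92.3 ± 89.3), Camk1 (64.9 ± 45.8), Camk1d (18.7 ± 21.6), Camk2a (1.57 ± 3.15) and Camk2b (1.47 ± 1.51). Camk2g and Camk1, Camk1d and Camk2a, and Camk2a and Camk2b were likewise closer than the larger SD of the pair. In YAPTAZ-ECKO, Camk2d moved from the third place to the last, at 6.02 scaled reads per kilobase. With the union of all exons as length, Camk2d and Camkk2 were level in WT, at 104 scaled reads per kilobase each. Whether reads cover the whole transcript or only its end is not clear from the labels, and for reads from the end length does not enter. Not divided by length, the highest WT means were Calm2 (2721 ± 269 scaled reads), Camk2d (2344 ± 1347), Calm3 (1663 ± 503) and Camkk2 (1140 ± 611). The place of Camk2d in the order thus depends on the division.

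Other genes of the pathway were taken from 5 lists that leave out the 9 genes. Of 136 listed genes, 25 were at 0 in all 8 libraries and 83 were tested, of which 0 were called (limma, adjusted p over all 8706 genes), against 0.0345% of all tested genes. At an unadjusted p under 0.05 there were 4 of 83, where all tested genes gave 5.47%, and voom also called 0. Groups without overlap occurred in 1 lower gene, Plcb3, and 1 higher gene, Creb1, of the 83. Among all tested genes 3.4% had groups without overlap, so nothing is read from these 2. In the tested genes 50 were lower and 33 higher in YAPTAZ-ECKO, or 60.2% lower, with a median difference of -0.11. All tested genes gave 56.9% and -0.09.

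**Figure D5:**
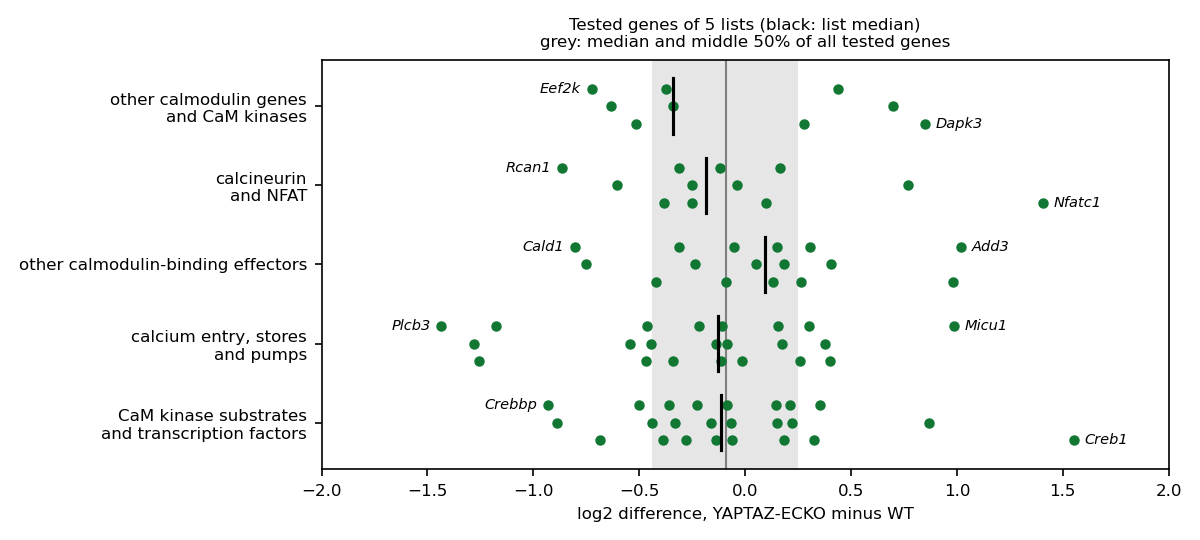
Log2 difference, YAPTAZ-ECKO minus WT, on log2(scaled reads + 128) (x axis) for the 83 tested genes of 5 calcium and calmodulin lists (rows), 1 point per gene, spread vertically only for legibility, with a black tick at each list's median. The grey line and band are the median and middle 50% of all tested genes, and the list medians lie between -0.34 and 0.09.

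Among the other calmodulin genes and CaM kinases, 9 of 20 genes were tested, 5 lower and 4 higher, with a median of -0.34. Camk1g, Camkv and Pnck, a kinase of the CaM kinase I family, were at 0 in every library, as were Calm4 and Calml3. Camk2n1, which encodes an inhibitor of CaM kinase II, was at 773, 512, 496 and 730 scaled reads in WT and at 172, 333, 858 and 260 in YAPTAZ-ECKO. YAPTAZ-ECKO 3 stood above all WT libraries and the other YAPTAZ-ECKO libraries below them, with a difference of -0.64 ± 0.53 (SE; limma, adjusted p = 0.990). Dapk1 and Dapk3, calmodulin-regulated kinases linked to cell death, differed by -0.34 ± 0.64 and 0.85 ± 0.59, and the scaffold kinase Cask by 0.70 ± 0.68 (SE). Camk4 reached 24.2 scaled reads in YAPTAZ-ECKO 2 and at most 1.48 elsewhere.

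Calcineurin is the phosphatase that calmodulin activates, and NFAT factors are its substrates. Of 15 genes in this list 12 were tested, 8 lower and 4 higher, with a median of -0.18. Ppp3r1, the regulatory subunit, was at 2380 ± 508 scaled reads in WT and 1857 ± 30.2 in YAPTAZ-ECKO (SD, n = 4 each), and the catalytic Ppp3ca differed by -0.25 ± 0.41 (SE). Nfatc1 was at 38.0, 0, 0 and 7.96 in WT and at 0, 895, 642 and 52.9 in YAPTAZ-ECKO. YAPTAZ-ECKO 2 and 3 were far above the other 6 libraries, and the difference was 1.41 ± 0.59 (SE; limma, adjusted p = 0.861). Nfat5, a factor known from osmotic stress, differed by 0.77 ± 0.48, and the anchoring protein gene Akap5 by 0.16 ± 0.39 (SE).

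Of 28 other calmodulin-binding effectors, 16 were tested, 7 lower and 9 higher, with a median of 0.09. The spectrin gene Sptan1, the striatin gene Strn3 and the adducin gene Add1 were the highest in WT, and differed by -0.24 ± 0.27, 0.15 ± 0.31 and -0.42 ± 0.45 (SE). Myo1c, an unconventional myosin with calmodulin light chains, differed by -0.75 ± 0.46 (SE; limma, adjusted p = 0.969). Camsap1, which binds microtubule minus ends, differed by 0.98 ± 0.66 (SE) and did not pass the test.

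Of 42 genes for calcium entry, stores and pumps, 22 were tested, 15 lower and 7 higher, with a median of -0.13. The store pump gene Atp2a2 and the store channel gene Itpr2 differed by -0.14 ± 0.40 and -0.09 ± 0.41 (SE). Atp2b1, the plasma membrane calcium pump, was at 2102 ± 42.0 scaled reads in WT and 1671 ± 777 in YAPTAZ-ECKO (SD, n = 4 each), where YAPTAZ-ECKO 3 alone was low at 555. Plcb3, a phospholipase C that yields the store-opening messenger, was at 488, 204, 478 and 153 in WT and at 0, 56.7, 85.9 and 0 in YAPTAZ-ECKO. All YAPTAZ-ECKO libraries lay below WT for Plcb3, yet its difference of -1.44 ± 0.54 did not pass the test (SE; limma, adjusted p = 0.760). Slc8b1, the mitochondrial sodium-calcium exchanger, differed by -1.28 ± 0.60 (SE; limma, adjusted p = 0.897).

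Substrates and transcription factors downstream of CaM kinases had 24 of 31 listed genes tested, 15 lower and 9 higher, with a median of -0.11. Creb1, a cyclic AMP response factor that CaM kinases phosphorylate, was at 1028, 348, 1767 and 1089 scaled reads in WT 1 to 4. It was at 2097, 4442, 2506 and 3383 in YAPTAZ-ECKO 1 to 4, each above every WT library. With a difference of 1.55 ± 0.43 it had the smallest adjusted p of the 5 lists and still did not pass the test (SE; limma, adjusted p = 0.461). Crebbp, the gene of its co-activator, differed by -0.93 ± 0.62 (SE). Hdac7, a class IIa deacetylase whose family is exported from the nucleus once phosphorylated, was the most abundant at 36384 ± 6372 in WT and 30683 ± 13918 in YAPTAZ-ECKO (SD, n = 4 each). Mef2a, the partner factor of these deacetylases, differed by 0.35 ± 0.30, and Tiam1, a Rac exchange factor, by -0.07 ± 0.28 (SE).

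The tested genes whose values correlated most closely with those of Camk2d over the 8 libraries were Gper1 (Pearson r = 0.975), Armcx5 (0.961), D2Wsu81e (0.951), Adk (0.949) and Dclre1a (0.949), computed on log2(scaled reads + 128). Gper1, a membrane oestrogen receptor gene, was at 143, 188, 211 and 120 scaled reads in WT 1 to 4 and at 0, 0, 0 and 1.20 in YAPTAZ-ECKO 1 to 4. The 5 genes lay between 64.7 and 415 scaled reads in WT and at 10.7 or less in YAPTAZ-ECKO. In YAPTAZ-ECKO 2, the library of its group with Camk2d reads, all 5 were at 0. They were picked for this likeness out of all tested genes, and the 8 points share their libraries and groups, so the coefficients are a description.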

How the data were processed

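The authors deposited log2 values per gene symbol for each of 8 libraries, 4 WT and 4 YAPTAZ-ECKO. Per the labels' protocols, Trizol RNA went into a Lexogen Quant-Seq kit. Per the submitters' processing notes, Bowtie2, edgeR and mm10 were used, and their versions, the counter and the annotation were not given in the sources used here. From the values, these are log2 of reads scaled to a common library size: 89.7% to 100% of values under 12 lay within 0.1 step of a whole multiple. A listed 0 was kept at 0.

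Limma 3.58.1 (R 4.3.3, trended and robust moderation) was fitted on log2(scaled reads + 128) without covariates. A gene needed 10 scaled reads or more in 4 or more libraries to be tested, with Benjamini-Hochberg adjustment over all of them. Fold changes on this scale understate those of low genes. The fit was tested on simulated data.

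The members and lists were chosen with earlier results of these data known. Named were the 9 genes, Yap1, Wwtr1, tested neighbours, the 5 genes most like Camk2d and, per list, called genes, the 3 highest in WT and the 2 with the smallest p. Other genes were named after their values were seen. A gene that the rule names is not reported here. Mrtfa was looked up under its older symbol Mkl1. A planned protein comparison was replaced by one of coding sequences (Biopython 1.88). Promoters are from RefSeq. Alternatives covered scaling, pseudocount, filter, scale, voom, the replicate number, left-out libraries and covariates.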

Additional observations from a re-analysis of the deposited data

Results flagged for a closer look

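Within groups of 4, 9 of 70 sets (35 genes in 2 groups) had a highest or lowest library whose gap to the others exceeded the 95% critical value of Dixon's test, which chance does in about 1 of 20 sets of well-behaved values. Values with many zeros meet this rule easily. Camk2d was at 133 scaled reads in YAPTAZ-ECKO 2 and 0 in the other 3. Camk1d was at 1249 in YAPTAZ-ECKO 2 and Slc8b1 at 191.5, each at 0 in the other 3. Camk2b was at 257.4 in YAPTAZ-ECKO 1, with the others at 5.30 or less, and Camk2g at 452.6, with the others at 39.1 or less. Camk2a was at 437.5 in YAPTAZ-ECKO 4, with the others at 39.1 or less, and at 31.28 in WT 1, with the others at 0. Nfat5 was at 1969 in WT 1, with the others from 489 to 675. Sptan1 was at 15430 in WT 3, with the others from 8611 to 9236.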

How the results depend on the processing

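The log2 difference of Camk2d, a description of -3.83, depended on the scale: -9.22 with a pseudocount of 1, -6.19 with 16, -2.26 with 512, -9.22 on the log2 values as deposited and -9.74 with voom. Leaving out a library at a time gave -4.16 to -3.55. The count of called genes, 3, was 0 with a pseudocount of 1, 0 on the deposited log2 values, 0 without the filter on low values, 0 with voom, 5 with Xist as a covariate and 1 with the mural marker sum as a covariate, these covariates being chosen after seeing the data. Leaving out a library at a time gave 0 (without WT 2) to 6 (without YAPTAZ-ECKO 3), and 1 without WT 1. The cause was not tested. Wwtr1 was called in 12 of 22 alternatives. Pathway genes called stayed at 0 throughout. With the replicate number as a block, 5 genes were called, but the numbers do not pair the libraries: the correlations of same-numbered deviations were -0.03, -0.04, 0.07 and 0.08, and pairs 1 and 2 correlated better with another number. Camk2a turned to -0.02 with the Xist covariate. Xist was at 6.91 scaled reads in YAPTAZ-ECKO 4, the library with Camk2a at 437, and between 4150 and 22931 in all others. Camk2b and Camk1d had too few libraries above the filter for a fitted difference.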

Other observations

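Mural cell markers, 12 genes of pericytes and smooth muscle of which Anpep was at 0 in all libraries, summed to 1821, 1396, 607 and 413 scaled reads in WT 1 to 4 and to 156, 825, 1248 and 396 in YAPTAZ-ECKO 1 to 4. With the mural marker sum as a covariate, chosen after seeing the data, the log2 difference of Camk2d was -3.80 ± 0.60 (SE), a description. Beyond that fit, the part of mural RNA in the Camk2d values was not tested. Erythroid markers summed to 17753 to 49654 in WT and 17869 to 60042 in YAPTAZ-ECKO.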
